A study of Mus musculus with 6 samples.

Results

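Matrix metalloproteinases (MMPs), their ADAMTS relatives and the inhibitors of both families were followed in mouse pericytes given platelet-derived growth factor BB (PDGF-BB). The set holds every gene of the array whose single annotated symbol is an Mmp, an Adamts with a number, Timp1 to Timp4 or Reck. There were 45 such genes among 20239 named genes: 22 MMPs, 18 ADAMTS proteases, 4 tissue inhibitors of metalloproteinases (TIMPs) and Reck. Mmp15 and Adamts2 are not analysed here.

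RNA came from isolated pericytes, the mural cells of capillaries, of the C57BL/6 background. The treated cultures received PDGF-BB at 100 ng/ml for 5 days (3 arrays), and the control cultures a control treatment for the same 5 days (3 arrays). What the control treatment contained is not stated, and nor is whether the arrays came from separate isolations, so the p-values reflect only how far these 6 samples scatter, and that scatter may be technical. All values are log2 expression values as deposited. Each log2 change is the PDGF-BB mean minus the control mean.

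MMPs are zinc-dependent proteases that are made as inactive precursors and, once activated, cut collagens, basement membrane and other matrix proteins. ADAMTS proteases carry thrombospondin repeats that tether them to the matrix, where various members cut proteoglycans, mature procollagens or act on microfibrils. TIMPs block the active site of these enzymes, and Reck is a membrane-anchored inhibitor of several MMPs. Around vessels, pericyte TIMP3 and endothelial TIMP2 are known to stabilise newly formed tubes against MMPs and ADAM proteases.

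The array medians of the named genes lay between 8.43 and 8.46. Arrays of the same group correlated at 0.994 to 0.996 across genes, and arrays of different groups at 0.973 to 0.986. A background level of 7.35 was set from 17 lymphocyte, mast cell and erythroid markers. Of these 2 lay above it, Cd3e the higher at 8.22 in PDGF-BB cultures and 8.27 in control cultures. Probe sets of genes taken as absent can thus read as high as the lower group means of Adamts15 (8.22, PDGF-BB) and Mmp10 (8.15, control). Of other genes given below with a fold or log2 change, Adamtsl1 (7.85), Pappa (8.09), Fmod (7.775) and Tagln (8.15) had PDGF-BB means under the Cd3e values. Lum (8.08) and Tll2 (7.54) had control means under them. Of 17 mural markers 12 lay above the background level, with Pdgfrb at 12.85 ± 0.09 in PDGF-BB cultures and 12.98 ± 0.11 in control cultures (SD, n = 3 each). Rgs5 measured 7.71 in PDGF-BB cultures and 7.77 in control cultures, a little above background, and Abcc9, Des, Higd1b and Vtn lay under it in both groups. The leukocyte gene Ptprc (6.17 in each group), the endothelial gene Pecam1 (6.82 with PDGF-BB and 6.91 in control) and the epithelial gene Epcam (6.30 with PDGF-BB and 6.28 in control) also lay under it. By their mean over all arrays, however, 6 of 12 endothelial, 4 of 10 epithelial and 4 of 16 macrophage markers lay above that level. Among them were Plvap (8.965 with PDGF-BB and 8.638 in control), Egfl7 (9.12 with PDGF-BB and 8.96 in control) and Cldn4 (8.32 with PDGF-BB and 8.30 in control). Of 12 fibroblast markers 11 lay above the background level. Among these were Dcn (13.63 with PDGF-BB and 13.54 in control) and Pdgfra (12.82 with PDGF-BB and 12.9 in control).

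With PDGF-BB, 15 of the 45 genes (33.3%) passed limma's test at an adjusted p under 0.05 (Benjamini-Hochberg, over all named genes). Over all named genes the share was 21.5%. Of the 45, 5 rose (11.1%, against 10.1% of all genes) and 10 fell (22.2%, against 11.4% of all genes). The genes that rose were Mmp10, Adamts7, Timp1, Mmp19 and Mmp1a. The genes that fell were Adamts15, Timp3, Mmp11, Adamts5, Reck, Mmp28, Adamts16, Adamts10, Adamts1 and Timp2. The median log2 change of the 45 genes was -0.08, against -0.02 for all named genes. In 21 of the 45 the 3 PDGF-BB arrays lay wholly to 1 side of the 3 control arrays, as they did in 37.6% of all genes. At least 2-fold changes were called in 4 of the 45 (Mmp10, Adamts15, Timp3 and Mmp11), against 3.3% of all genes. Without control array 3 the number that fell was 5, and without PDGF-BB array 1 it was 6. In 13 of the 45 genes both group means lay under the background level, where a change may go unseen. In 31 both lay above it, and of those 12.9% rose and 32.3% fell. Of all named genes with both group means above it, 14.5% rose and 15.8% fell. In RNA of whole cultures, fewer cells of a type and less RNA per cell cannot be told apart.

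**Figure D1:**
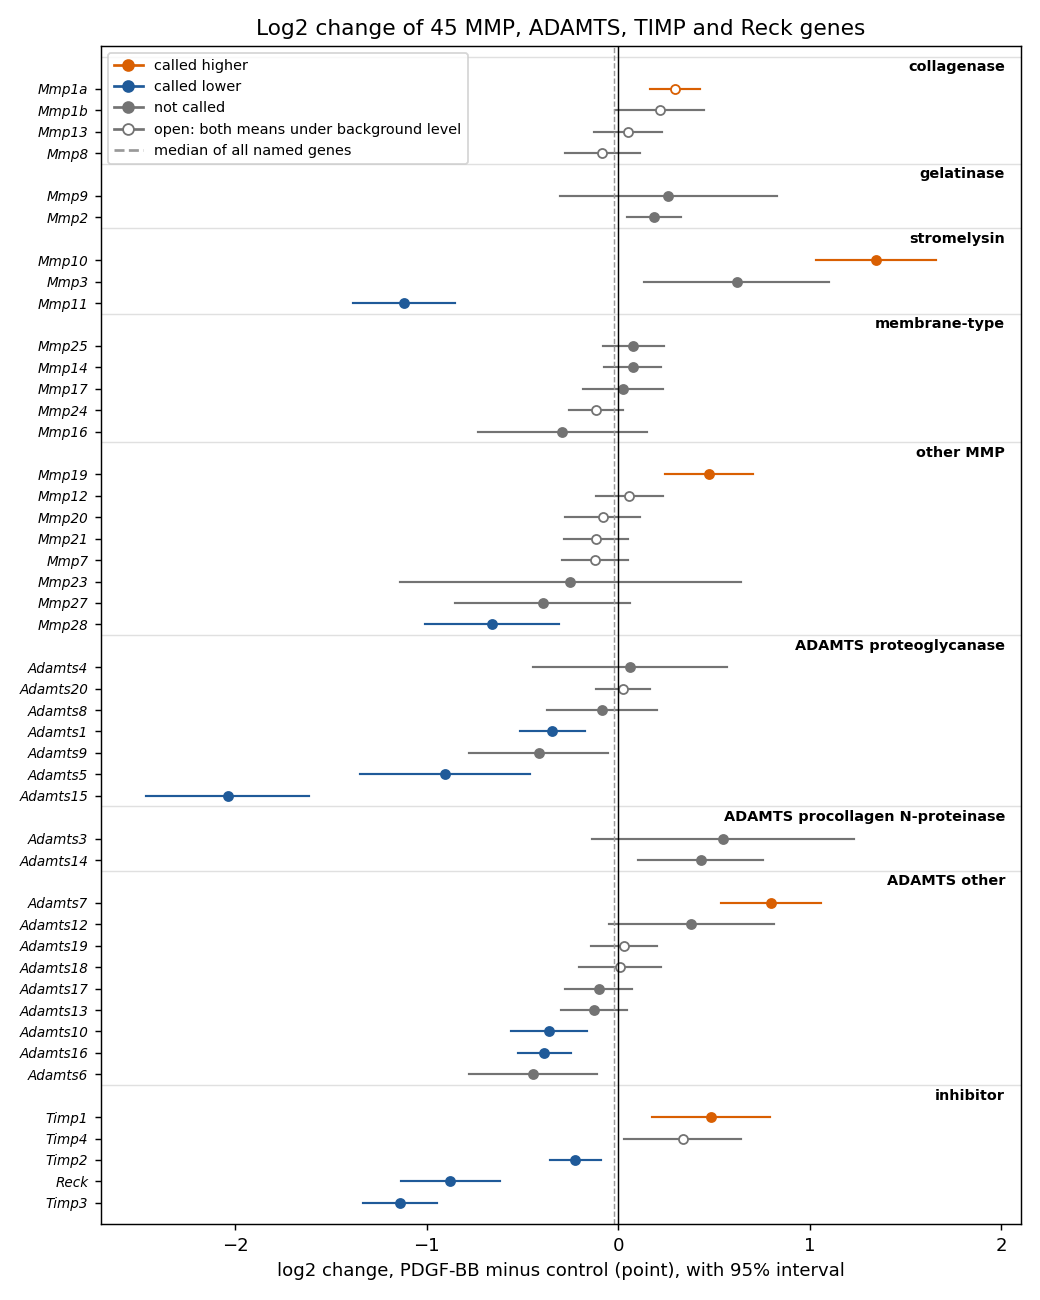
Log2 change (PDGF-BB minus control, horizontal axis) of the 45 genes by class, with the 95% interval of the moderated fit. Orange genes were called higher and blue genes lower, open points have both group means under the background level, and the dashed line is the median of all named genes. Adamts15 lies farthest left at -2.04 and Mmp10 farthest right at 1.35.

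The stromelysins, broad-range proteases that also activate other MMP precursors, moved in opposite directions. Mmp10, stromelysin-2, measured 9.81, 9.32 and 9.37 in PDGF-BB cultures, against 8.06, 8.15 and 8.25 in control cultures. All PDGF-BB arrays lay above all control arrays, a 2.54-fold rise (log2 change 1.35, SE 0.13, adjusted p = 0.0015, limma). Mmp11, stromelysin-3, is unlike the other stromelysins in that it leaves its producing cell already activated by furin and cuts few classical matrix proteins. It measured 10.80, 10.76 and 11.01 in PDGF-BB cultures, against 11.83, 11.92 and 12.19 in control cultures. The groups did not overlap, and Mmp11 was 2.17-fold lower (log2 change -1.12, SE 0.11, adjusted p = 0.0016, limma). Mmp3, stromelysin-1, measured 13.06, 12.74 and 12.28 in PDGF-BB cultures and 11.99, 12.33 and 11.90 in control cultures. The lowest PDGF-BB array lay under the highest control array, and Mmp3 did not pass (log2 change 0.62, 95% interval 0.14 to 1.10, adjusted p = 0.075, limma). Blocking on the array number brought its adjusted p to 0.028, and leaving out PDGF-BB array 3 brought it to 0.023.

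Mmp10 and Mmp3 belong to a run of 10 MMP genes on mouse chromosome 9 with no other protein-coding gene between them, in the order Mmp13, Mmp12, Mmp1b, Mmp3, Mmp1a, Mmp10, Mmp8, Mmp27, Mmp20 and Mmp7 in RefSeq's table for GRCm38.p6. AP-1, the dimer of Fos and Jun proteins, is a textbook regulator of several of these genes. The 110 bases before the RefSeq start are shown for both stromelysins of the cluster, for its collagenases Mmp1a and Mmp13, and for Mmp11 on chromosome 10, to let the AP-1 motif be compared. They are RefSeq sequences (GRCm38.p6) read 5′ to 3′ on the gene's strand, and capitals mark the motif TGANTCA, which reads the same on both strands.
Mmp10: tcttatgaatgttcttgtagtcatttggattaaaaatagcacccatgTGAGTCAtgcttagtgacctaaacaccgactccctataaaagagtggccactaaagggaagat
Mmp3: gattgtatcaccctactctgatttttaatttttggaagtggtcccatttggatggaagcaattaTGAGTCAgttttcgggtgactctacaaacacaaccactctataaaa
Mmp1a: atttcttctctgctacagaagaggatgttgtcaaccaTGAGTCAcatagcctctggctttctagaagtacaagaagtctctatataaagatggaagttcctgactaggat
Mmp13: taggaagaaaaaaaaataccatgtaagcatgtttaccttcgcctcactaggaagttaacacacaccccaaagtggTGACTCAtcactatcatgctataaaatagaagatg
Mmp11: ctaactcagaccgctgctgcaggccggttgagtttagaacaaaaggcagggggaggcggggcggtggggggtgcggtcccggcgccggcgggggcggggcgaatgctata
These stretches lie at chr9:7502232-7502341 (Mmp10), chr9:7445712-7445821 (Mmp3), chr9:7464031-7464140 (Mmp1a) and chr9:7272404-7272513 (Mmp13) on the plus strand, and at chr10:75932503-75932612 (Mmp11) on the minus strand.

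RefSeq promoter sequences were matched to 31 of the 45 genes. Within the 250 bases before a start, 8 of the 10 cluster genes held the AP-1 motif, and 0 of the 21 matched genes outside the cluster did. The motif occurred in 6.75% of all 32851 RefSeq promoters of that length. Its first base lay at -63 in Mmp10, -46 in Mmp3, -73 in Mmp1a and -35 in Mmp13, counted back from the base before the start. None of the 6 matched genes that fell held it, and of the 3 matched genes that rose, Mmp10 and Mmp1a did and Timp1 did not. The other holders, Mmp13, Mmp12, Mmp1b, Mmp3, Mmp20 and Mmp7, were not called. Adamts7 and Mmp19, which rose, and Adamts15, Adamts5, Adamts16 and Adamts10, which fell, had no matched promoter. Any link between the motif and the direction of change was not tested. An ETS-type motif, AGGAAG on either strand, occurred in 13 of the 31 genes, against 29.5% of all promoters. Of the 8 cluster genes that hold the AP-1 motif, only Mmp3 and Mmp10 had group means above the background level.

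**Figure D2:**
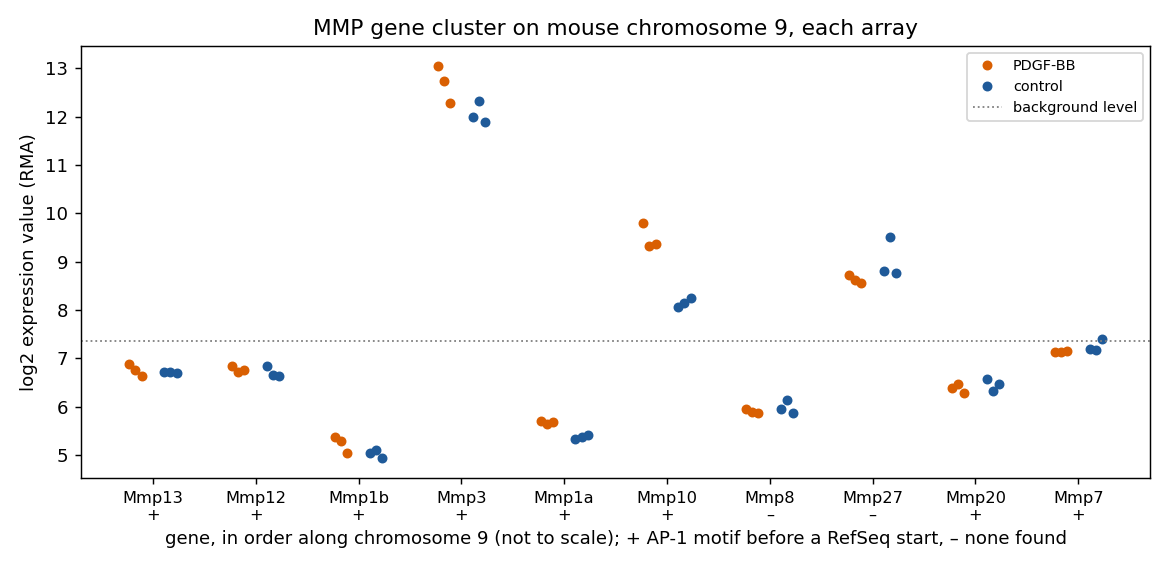
Log2 expression value (vertical axis) of the 10 MMP genes of the chromosome 9 cluster on each of 3 PDGF-BB arrays (orange) and 3 control arrays (blue), in gene order. The dotted line is the background level of 7.35, and a plus sign marks an AP-1 motif before a RefSeq start. Mmp3, Mmp10 and Mmp27 lie above the line, and the other 7 have both group means under it.

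The collagenases, which open the triple helix of fibrillar collagens, were near background. Mmp8, Mmp13, Mmp1a and Mmp1b had group means from 5.03 to 6.76. Mmp1a, a rodent counterpart of human interstitial collagenase, measured 5.71, 5.64 and 5.68 in PDGF-BB cultures, against 5.34, 5.38 and 5.42 in control cultures. The groups did not overlap and the gene passed (log2 change 0.30, SE 0.06, adjusted p = 0.010, limma), at a level where no fold is given. Its neighbour and close relative Mmp1b did not pass (log2 change 0.22, 95% interval -0.02 to 0.45, adjusted p = 0.18), except when PDGF-BB array 3 was left out (0.049). Probes of close relatives (Mmp1a with Mmp1b, Mmp3 with Mmp10) were not checked for shared sequence.

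Neither gelatinase passed. Mmp2, the gelatinase that cuts basement membrane collagen and denatured collagen, measured 13.58, 13.63 and 13.55 in PDGF-BB cultures, against 13.34, 13.46 and 13.39 in control cultures. All PDGF-BB arrays lay above the control arrays by a small margin (log2 change 0.19, 95% interval 0.05 to 0.33, adjusted p = 0.066, limma). Mmp2 passed after repeated quantile normalization (adjusted p = 0.042), with each array centred on its median (0.049) and with an intensity trend in the prior (0.024). Mmp9, the gelatinase also made by leukocytes, measured 9.32, 10.12 and 10.07 in PDGF-BB cultures and 9.75, 9.24 and 9.75 in control cultures. The groups overlapped, with PDGF-BB array 1 under 2 of the control arrays (log2 change 0.26, 95% interval -0.30 to 0.83, adjusted p = 0.53). The 10 neutrophil markers had a mean log2 level of 6.40 to 6.56 on the PDGF-BB arrays and 6.44 to 6.50 on the control arrays, and 8 of them lay under the background level.

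None of the 5 membrane-type MMPs, which are anchored at the cell surface, was called. In limma 0 of them also had an unadjusted p under 0.05. Mmp14, MT1-MMP, activates the Mmp2 precursor together with Timp2. It measured 12.78, 12.84 and 12.92 in PDGF-BB cultures and 12.78, 12.71 and 12.82 in control cultures. These groups overlapped, and the interval of the log2 change of 0.08 ran from -0.07 to 0.22 (adjusted p = 0.49). Mmp16 had a log2 change of -0.29 (95% interval -0.73 to 0.15). Mmp17 and Mmp25, which hold to the membrane by a lipid anchor, and Mmp24 had group means between 7.22 and 7.80, close to background.

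Among the 8 remaining MMPs, 1 rose (12.5%, against 10.1% of all named genes) and 1 fell (12.5%, against 11.4%). Mmp19, an MMP of stromal and vascular cells that cuts basement membrane proteins, measured 12.48, 12.23 and 12.60 in PDGF-BB cultures, against 11.92, 11.96 and 12.01 in control cultures. It was 1.39-fold higher without overlap (log2 change 0.47, SE 0.10, adjusted p = 0.015, limma). Leaving out PDGF-BB array 1 ended this call (0.057). Mmp28, epilysin, measured 8.78, 8.76 and 8.70 in PDGF-BB cultures, against 9.05, 9.64 and 9.53 in control cultures. The PDGF-BB arrays were nearly level while control array 1 lay well under the other two, and the difference was 1.58-fold (log2 change -0.66, SE 0.15, adjusted p = 0.021). Its adjusted p was 0.055 to 0.068 without control array 2 or 3 or any 1 PDGF-BB array. Mmp23, which is anchored by an N-terminal segment, varied most within groups: 9.36, 9.97 and 10.45 in PDGF-BB cultures and 9.41, 10.59 and 10.52 in control cultures. In both groups array 1 was the low one, and the log2 change was -0.25 (95% interval -1.14 to 0.64). Mmp27 had a log2 change of -0.39 (adjusted p = 0.22), and Mmp7, Mmp12, Mmp20 and Mmp21 lay under the background level in both groups.

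**Figure D3:**
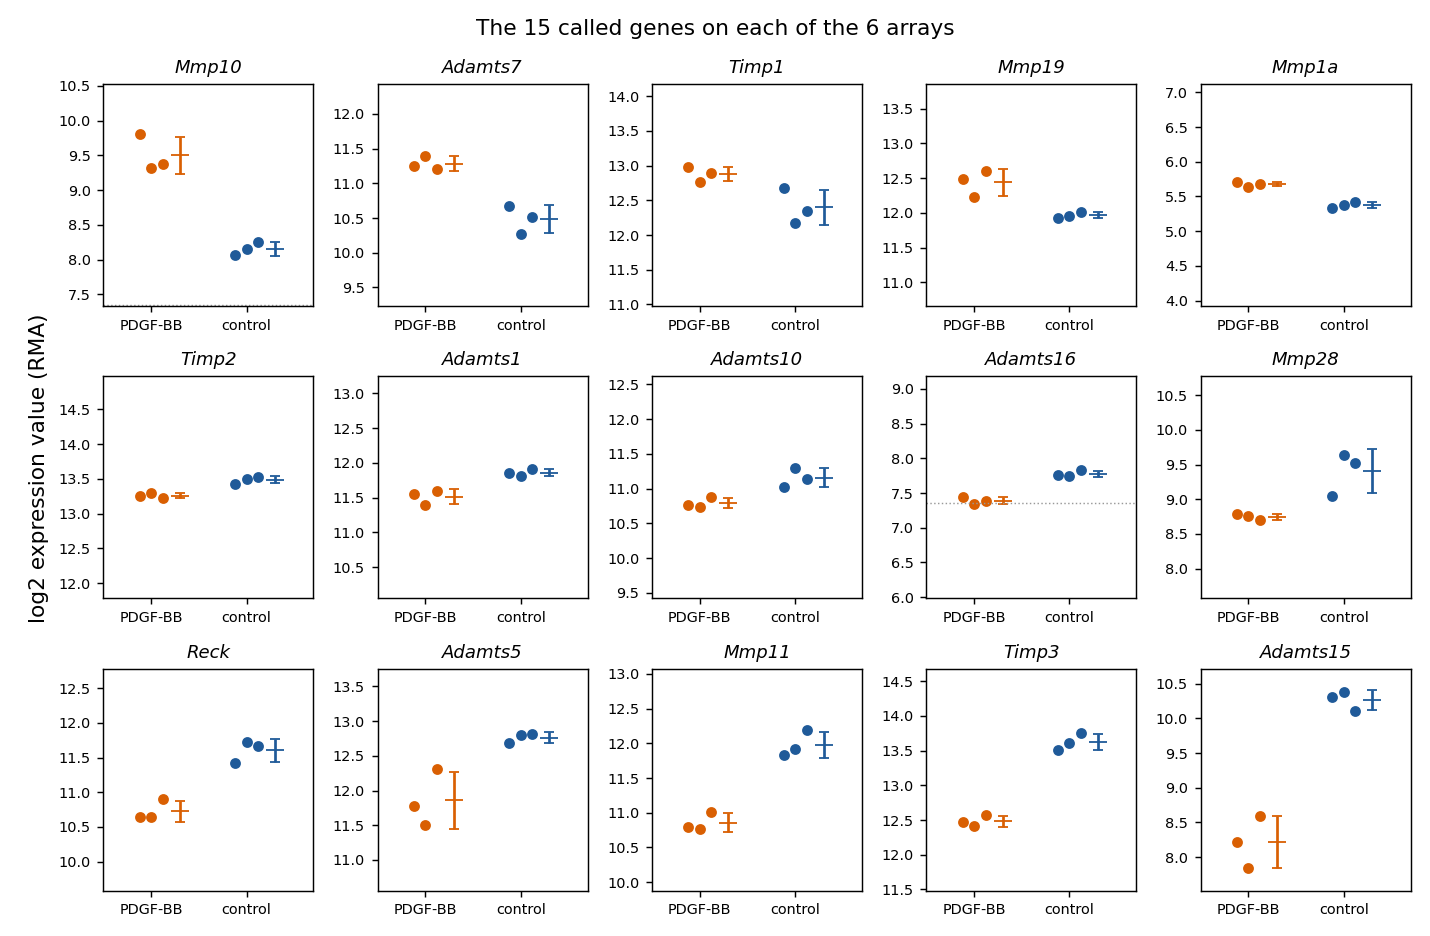
Log2 expression value (vertical axis, each panel spanning the same range) of the 15 called genes on each array, PDGF-BB in orange and control in blue, ordered from the largest rise to the largest fall. Bars show mean ± SD of 3 arrays and the dotted line, where in range, the background level. The 3 arrays of each group do not overlap in any of the 15 panels, and the 3 PDGF-BB arrays of Adamts5 and Adamts15 are more spread than the 3 control arrays.

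Of the 7 ADAMTS proteases that cut the proteoglycans versican and aggrecan, 3 fell (42.9%, against 11.4% of all named genes) and 0 rose (against 10.1%). Their median log2 change was -0.34, against -0.02 for all named genes. Adamts15 measured 8.22, 7.85 and 8.59 in PDGF-BB cultures, against 10.30, 10.38 and 10.10 in control cultures. The groups lay far apart, and Adamts15 was 4.11-fold lower (8.22 ± 0.37 against 10.26 ± 0.14, SD, n = 3 each, log2 change -2.04, SE 0.18, adjusted p = 0.0012, limma). Adamts5, the main aggrecanase of mouse cartilage, measured 11.77, 11.50 and 12.31 in PDGF-BB cultures, against 12.68, 12.80 and 12.81 in control cultures. It was 1.87-fold lower without overlap (log2 change -0.90, SE 0.19, adjusted p = 0.015), and its adjusted p was 0.051 to 0.059 in the fits lacking PDGF-BB array 1, control array 2 or control array 3. Adamts1, an inducible versican-cutting protease, measured 11.55, 11.39 and 11.60 in PDGF-BB cultures, against 11.86, 11.81 and 11.91 in control cultures. The difference was 1.27-fold (log2 change -0.34, SE 0.07, adjusted p = 0.016), and leaving out control array 3 ended the call (0.053).

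The other proteoglycan-cutting members did not pass. Adamts9 measured 10.12, 10.20 and 10.50 in PDGF-BB cultures and 10.38, 10.89 and 10.80 in control cultures, with 1 PDGF-BB array above the lowest control array. Its log2 change of -0.42 had an adjusted p of 0.11, which was 0.032 in the fit that blocks on the array number and 0.022 when control array 1 was left out. Adamts4, aggrecanase-1, had a log2 change of 0.06 (95% interval -0.45 to 0.57) that was -0.19 without PDGF-BB array 3 and -0.02 without control array 2. Adamts8 averaged 7.62 in PDGF-BB cultures and 7.70 in control cultures, and Adamts20 lay under the background level in both groups.

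Versican itself (Vcan), the proteoglycan these proteases cut, was 1.36-fold higher (12.40 ± 0.02 in PDGF-BB cultures against 11.95 ± 0.13 in control cultures, SD, n = 3 each, adjusted p = 0.0070, limma). Aggrecan (Acan) lay under the background level in both groups (6.69 with PDGF-BB and 6.74 in control).

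The procollagen N-proteinases, which trim the amino-terminal propeptide of fibrillar procollagens, were not called. Adamts14 measured 10.31, 10.19 and 10.64 in PDGF-BB cultures, against 9.97, 9.75 and 10.12 in control cultures. The groups did not overlap (log2 change 0.43, 95% interval 0.11 to 0.76, adjusted p = 0.069), and Adamts14 passed in the fit that blocks on the array number (0.0081). Adamts3, also known to process the lymphatic growth factor VEGF-C, measured 8.26, 7.30 and 7.06 in PDGF-BB cultures and 7.19, 6.89 and 6.89 in control cultures. PDGF-BB array 1 stood apart from the other 5 arrays, which lay under the background level (adjusted p = 0.25).

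Among the other 9 ADAMTS genes, 1 rose (11.1%, against 10.1% of all named genes) and 2 fell (22.2%, against 11.4%). Adamts7, which cuts cartilage oligomeric matrix protein and is known for promoting vascular smooth muscle migration, measured 11.25, 11.40 and 11.20 in PDGF-BB cultures, against 10.67, 10.27 and 10.52 in control cultures. It was 1.74-fold higher without overlap (log2 change 0.80, SE 0.11, adjusted p = 0.0036, limma). Its closest relative Adamts12 did not pass (log2 change 0.38, 95% interval -0.05 to 0.81, adjusted p = 0.20). There 1 control array lay above the lowest PDGF-BB array, and the gene passed when PDGF-BB array 1 was left out (0.047). Adamts16 measured 7.45, 7.34 and 7.38 in PDGF-BB cultures, against 7.76, 7.74 and 7.83 in control cultures. The PDGF-BB arrays lay at the background level, and the difference was 1.31-fold (log2 change -0.39, SE 0.06, adjusted p = 0.0050).

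The pair Adamts10 and Adamts6, proteases tied to fibrillin microfibrils, had lower means under PDGF-BB. Adamts10 measured 10.77, 10.74 and 10.88 in PDGF-BB cultures, against 11.03, 11.30 and 11.14 in control cultures, and fell 1.29-fold without overlap (log2 change -0.36, SE 0.08, adjusted p = 0.023, limma). Its adjusted p was 0.057 to 0.078 in the fits lacking PDGF-BB array 1, PDGF-BB array 2, control array 2 or control array 3. Adamts6 did not pass (log2 change -0.45, 95% interval -0.78 to -0.11, adjusted p = 0.066), although its groups did not overlap. It passed without control array 2 (0.046), without PDGF-BB array 3 (0.047) and without the dimmer genes (0.044). Adamts13, the von Willebrand factor protease of the liver, and Adamts17 had log2 changes of -0.13 and -0.10, and Adamts18 and Adamts19 lay under the background level.

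Of the 5 inhibitors 4 were called, 3 lower (60%, against 11.4% of all named genes) and 1 higher (20%, against 10.1%). Of all named genes with both group means above the background level, 15.8% fell and 14.5% rose. The inhibitor class is small, and the calls of Timp1 and Timp2 were each kept in 1 of the 6 fits that leave out an array. Timp3, a TIMP held in the matrix and an inhibitor of ADAM17 and of aggrecanases as well as MMPs, measured 12.47, 12.41 and 12.57 in PDGF-BB cultures, against 13.51, 13.61 and 13.75 in control cultures. All PDGF-BB arrays lay about 1 log2 unit under the control arrays (2.20-fold lower, 12.48 ± 0.08 against 13.62 ± 0.12, SD, n = 3 each). With a log2 change of -1.14 (SE 0.08) and an adjusted p of 6.4e-04 (limma), Timp3 had the smallest p of the 45 genes. Reck, the membrane-anchored inhibitor of Mmp2, Mmp9 and Mmp14, measured 10.64, 10.64 and 10.90 in PDGF-BB cultures, against 11.42, 11.72 and 11.67 in control cultures. It was 1.84-fold lower without overlap (log2 change -0.88, SE 0.11, adjusted p = 0.0027).

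Timp2, which both inhibits Mmp2 and takes part in its activation, measured 13.26, 13.29 and 13.23 in PDGF-BB cultures, against 13.43, 13.50 and 13.53 in control cultures. The arrays of a group were close together, and the fall was 1.17-fold (log2 change -0.22, SE 0.06, adjusted p = 0.032, limma). Its adjusted p was 0.061 in the fit that blocks on the array number and 0.074 to 0.096 without control array 2 or 3 or any 1 PDGF-BB array. Timp1, the inducible soluble inhibitor, went the other way, with 12.98, 12.77 and 12.89 in PDGF-BB cultures, against 12.68, 12.18 and 12.34 in control cultures. It was 1.40-fold higher without overlap (log2 change 0.48, SE 0.13, adjusted p = 0.038), and its adjusted p was 0.061 to 0.12 without control array 2 or 3 or any 1 PDGF-BB array. Timp4 lay under the background level in both groups (6.85 with PDGF-BB and 6.52 in control).

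Genes that activate, clear or are cut by these proteases were described from 8 lists, which hold 105 measured genes. Of these 18 rose and 14 fell, 30.5% in all against 21.5% of all named genes. Among all named genes with both group means above the background level, 30.3% were called, close to the share of the lists. Of all named genes 10.1% rose and 11.4% fell, the shares to set beside each list count below. Between 15 and 17 rose and between 10 and 13 fell when any 1 array was left out.

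In the plasminogen system, whose product plasmin activates several MMP precursors, 2 of 12 genes were called higher and 1 lower, with a median of -0.03 log2 units. Plat, tissue plasminogen activator, rose 1.38-fold and Plaur, the urokinase receptor, 1.56-fold (adjusted p = 0.0039 and 0.0042, limma). Thbd, thrombomodulin, was 2.08-fold lower (adjusted p = 0.0047). Plau, urokinase, had a log2 change of -0.41 and did not pass (adjusted p = 0.093), but passed with the replicate block (0.015), which gives 2 genes lower, and in the fit lacking PDGF-BB array 3 (0.025). Of 7 proprotein convertases, some of which remove the propeptides of certain MMPs, 1 fell, Pcsk5. Both its group means lay under the background level, and its call was kept in 1 of the 6 fits that leave out an array. Furin had a log2 change of 0.18 (adjusted p = 0.086, and 0.045 in the fit lacking control array 1).

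Of 16 genes of clearance, surface docking and general inhibition, 3 rose and 2 fell. Col18a1, the collagen XVIII chain from which proteases release endostatin, rose 2.48-fold, and Itgb3, the β3 integrin subunit, rose 1.63-fold (adjusted p = 9.0e-04 and 0.0026, limma). Lrpap1, the chaperone of the clearance receptor Lrp1, was 1.24-fold lower, and Bsg, the MMP inducer basigin, was 1.15-fold lower. The Bsg call was lost when any 1 array was left out (adjusted p = 0.057 to 0.13) and with the block (0.077). Of 12 ADAM genes 1 rose and 1 fell. Adam17, which releases tumour necrosis factor and which Timp3 inhibits, rose 1.41-fold (adjusted p = 0.0054, limma). It averaged 11.69 ± 0.10 in PDGF-BB cultures and 11.20 ± 0.09 in control cultures (SD, n = 3 each). Adam22 fell at a level under background, a call that was lost with the block (adjusted p = 0.057) and in 5 of the 6 fits that leave out an array. With the block 2 ADAM genes rose and 0 fell, Adamdec1 being the one gained (adjusted p = 0.023).

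ADAMTS-like proteins share the ADAMTS matrix-binding domains but have no protease domain. Of 7 measured 3 fell (42.9%, against 11.4% of all named genes) and 0 rose. Adamtsl4 was 2.29-fold lower, Adamtsl3 2.70-fold lower and Adamtsl1 2.67-fold lower (adjusted p = 5.4e-04, 0.0018 and 0.0042, limma). Of 9 genes of astacin and pappalysin metalloproteases and their helpers, 2 rose and 3 fell. Pappa, which cuts insulin-like growth factor binding proteins, was 3.42-fold lower. The tolloid-like proteases moved in opposite directions, Tll1 at least 3.32-fold lower and Tll2 2.40-fold higher (adjusted p = 0.0027 and 0.0083). Pappa2 rose at a level under background and was called in 3 of the 6 fits that leave out an array.

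Of 23 matrix substrates 5 rose and 1 fell, with a median of 0.06 log2 units, and 2 to 4 rose when any 1 array was left out. Besides Vcan, Lum (lumican) was higher by 2.91 log2 units and Fmod (fibromodulin) had a log2 change of -3.03. Fibronectin (Fn1) had a log2 change of 0.01 and Col1a1 one of 0.17, and neither passed. Of 20 AP-1 and ETS factors 5 rose and 2 fell. The ETS factors Etv5 and Etv4 rose 2.83-fold and 2.57-fold, whereas the AP-1 subunits Fos and Fosb were 2.28-fold and 2.84-fold lower (adjusted p = 3.1e-04, 7.3e-04, 0.0038 and 0.0046, limma). Another AP-1 subunit, Fosl1, named after its value was seen, rose 2.05-fold (adjusted p = 0.0022).

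**Figure D4:**
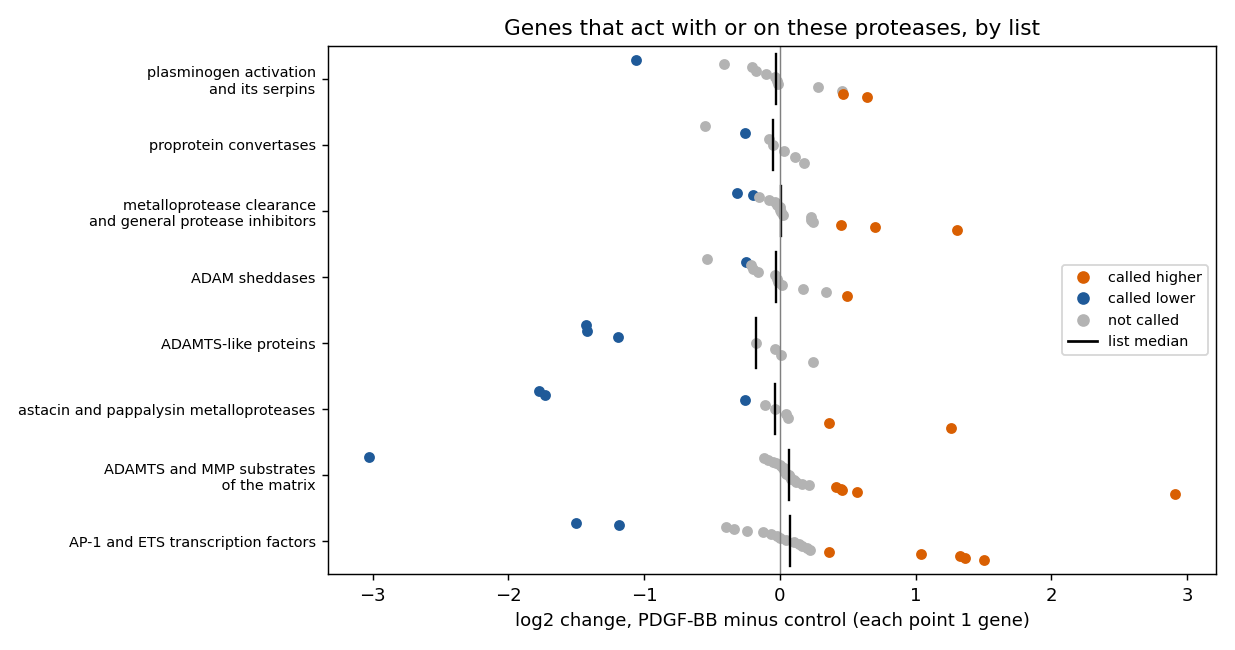
Log2 change (PDGF-BB minus control, horizontal axis) of each measured gene in the 8 lists, orange where called higher, blue where called lower and grey where not called, with each list's median as a black line. The 3 called ADAMTS-like genes lie between -1.43 and -1.19, and list medians lie between -0.18 and 0.07.

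The mean log2 level of 12 fibroblast markers was 10.53 to 10.81 on the PDGF-BB arrays and 10.33 to 10.42 on the control arrays. These markers went both ways, with a median log2 change of 0.06. Lum, Col15a1 and Dpt were called higher, Mfap5 was called lower and 8 were not called. The share called was 33.3%, against 21.5% of all named genes. Mfap5 was 5.72-fold lower (adjusted p = 0.012, limma). The mean level of the 17 mural markers was 8.87 to 8.97 on the PDGF-BB arrays and 9.03 to 9.18 on the control arrays. The 16 macrophage markers averaged 7.06 to 7.19 on the PDGF-BB arrays and 7.003 to 7.06 on the control arrays, with Ptprc, Adgre1 and Csf1r under the background level in both groups. Of the mural markers 1 was called higher and 3 lower (23.5% in all, against 21.5% of all named genes). Anpep, aminopeptidase N, averaged 10.09 ± 0.10 in PDGF-BB cultures and 9.22 ± 0.20 in control cultures (SD, n = 3 each, adjusted p = 0.0028, limma). Tagln, the actin-binding protein transgelin, averaged 8.15 ± 0.35 in PDGF-BB cultures and 10.23 ± 0.79 in control cultures (SD, n = 3 each, adjusted p = 0.0095, limma), a 4.22-fold lower signal. Acta2, smooth muscle actin, averaged 12.69 ± 0.56 in PDGF-BB cultures and 13.76 ± 0.06 in control cultures (SD, n = 3 each, adjusted p = 0.024, limma), and the call was kept in 2 of the 6 fits that leave out an array, those lacking PDGF-BB array 2 or 3. Cd248, endosialin, was 1.26-fold lower (adjusted p = 0.040), a call kept in 1 of those 6 fits, the one lacking control array 1. Of the macrophage markers 3 were called higher and 2 lower (31.2% in all, against 21.5% of all named genes). Mertk, a receptor for dying cells, rose 1.63-fold, Cd14, a lipopolysaccharide co-receptor, 1.74-fold, and Mpeg1, perforin-2, at least 2.64-fold with its control mean under the background level (adjusted p = 0.0018, 0.0071 and 0.0052, limma). Lyz2, lysozyme, was called lower with both group means under background, and Cd68, a lysosomal protein, was lower at 8.96 ± 0.08 in PDGF-BB cultures against 9.39 ± 0.16 in control cultures (SD, n = 3 each, adjusted p = 0.018, limma), a call lost in the fits lacking PDGF-BB array 1 or 2. Of 12 endothelial markers 1 was called higher, Plvap (adjusted p = 0.038, limma), and 0 lower (8.33% in all, against 21.5% of all named genes). Of 10 epithelial markers 0 were called. The part of these markers in the protease and inhibitor results was not tested.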

How the data were processed

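The deposited table holds log2 values of 21225 probe sets on 6 arrays of biotin-labelled total RNA. The submitters' processing notes name RMA, which corrects background, quantile-normalizes and summarises probe sets, so a change is measured against most other genes. Its software and version and the array's genome build are not given in these sources. Platform annotation gave 20239 probe sets exactly 1 symbol, 0 several and 986 none.

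Groups came from sample titles. All 20239 genes were fitted with limma 3.58.1 (R 4.3.3; lmFit, eBayes, group as the only factor, two-sided), with Benjamini-Hochberg adjustment over all of them. Folds are back-transformed log2 changes. The background level is the 90th percentile of 17 markers taken as absent; where the lower mean lies under it a fold is "at least", and where both do, none is given. Arrays give no read depth; 3 per group limits the precision. The fit was tested only on simulated data whose noise is independent between arrays. That test cannot show how the fit behaves if same-numbered arrays share deviations.

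Genes, lists and the background rule were chosen with earlier results of these data known. Per-array values are given for called genes and for Mmp2, Mmp9, Mmp14, Timp1, Timp2, Timp3 and Reck, and for some uncalled genes chosen after their values were seen. Of each list, up to 4 called genes of smallest p are named, up to 2 in each direction where both occur; others named were chosen after their values were seen.

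The main fit did not pair the arrays, and the replicate numbers were used as a block in an alternative fit only. That alternative was run because deviations from group means correlated at 0.25, 0.32 and 0.25 between same-numbered arrays and at -0.28 to 0.01 otherwise. Deviations cancel out within a group, so positive values between same-numbered arrays bring negative ones elsewhere. These correlations therefore cannot settle whether the arrays are paired. The block fit and other alternatives are given with the closing observations.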

Additional observations from a re-analysis of the deposited data

How the results depend on the processing

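Over the 15 called genes, 193 values were computed under repeated quantile normalization, median centring, removal of genes whose mean signal was below the 50th percentile, adjustment over every probe set, a trended or robust prior, the replicate block and leaving out each array. None of these changed direction, and 168 stayed called. Of the settings that keep all arrays, only the replicate block lost a call (Timp2), while Adamts16 and Mmp1a were not tested without the dimmer genes. With the replicate block 7 of the 45 genes rose and 10 fell, against 5 and 10 without it, and Mmp3, Adamts14 and Adamts9 were gained. Leaving out 1 array, 4 to 6 rose and 5 to 11 fell, and Adamts15, Timp3, Mmp10, Mmp11, Reck, Adamts7, Adamts16 and Mmp1a were called every time. Among the other genes named, the block lost the calls of Bsg and Adam22 (adjusted p = 0.077 and 0.057) and gained those of Plau (0.015), Adamdec1 (0.023) and Junb (lower, 0.035); among the substrates it also lost Col3a1 (0.054). Leaving out 1 array gained Adam12 among the ADAM genes (lower, 0.0089, lacking PDGF-BB array 3), Thsd4 among the ADAMTS-like genes (higher, 0.049, lacking the same array) and Junb and Jund among the AP-1 and ETS factors, of which 4 were then lower (lacking control array 3); these genes were named after their values were seen. Signs turned in 8 uncalled members, Acan and Fn1, among the genes recomputed, and only when 1 array was left out, where the log2 change ranged from -0.014 to 0.12 for Mmp13, -0.065 to 0.091 for Adamts18, -0.0074 to 0.058 for Adamts20, -0.053 to 0.075 for Mmp17, -0.0019 to 0.085 for Adamts19, -0.19 to 0.26 for Adamts4, -0.63 to 0.032 for Mmp23, -0.21 to 0.039 for Adamts8, -0.10 to 0.0099 for Acan and -0.014 to 0.045 for Fn1. The causes were not tested. No detection calls were used, so genes near background are weakly measured.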

Other observations

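The size of the difference varied with the array number in some of these genes. Between the arrays numbered 1, 2 and 3, the PDGF-BB minus control difference was 1.75, 1.17 and 1.12 log2 units for Mmp10 and 1.07, 0.41 and 0.38 for Mmp3, largest for number 1 in each. For Adamts15 it was -2.08, -2.53 and -1.51, for Adamts5 -0.91, -1.30 and -0.50, and for Adamts7 0.58, 1.13 and 0.68, largest for number 2 in each. For Timp3 it was -1.04, -1.20 and -1.18 and for Mmp11 -1.03, -1.16 and -1.18, nearly level over the 3 numbers. The labels do not say what a number shares, and these differences between numbers were not tested.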
